A study of Gallus gallus with 2 samples.

Results

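BAFF, CD40 and the death receptors belong to the tumour necrosis factor (TNF) ligand and receptor superfamilies. Here 9 of these genes were followed in chicken DT40 cells with a double knockout of the histone variant H2A.Z. They were the ligands TNFSF13B and TNFSF10 and the receptors TNFRSF13B, TNFRSF13C, CD40, FAS, TNFRSF10B, TNFRSF1A and TNFRSF21. All probe sets that the array's annotation gives to 1 of these symbols were taken. This gave 19 of the array's 38535 probe sets and 8 of its 13051 annotated genes. No probe set was annotated to TNFRSF13C. DT40 is a B lymphoma line from the bursa of Fabricius of the chicken. The 2 groups had 1 array each: a clone in which H2A.Z-2 was removed for good and H2A.Z-1 came only from a transgene switched off with tetracycline for 3 days, and a wild-type clone. The labels do not settle whether the wild-type culture received tetracycline, so the drug and the genotype cannot be told apart, and each group was a single clone. With no replicates there is no replicate check, no test was made, and precision is limited by having only 2 arrays. In RNA of a whole culture, fewer cells that express a gene and less RNA per cell cannot be told apart.

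BAFF, the product of TNFSF13B, is a cytokine that keeps B cells alive through the receptors BAFF-R (TNFRSF13C) and TACI (TNFRSF13B). In chickens it is made by B cells of the bursa themselves. CD40 receives activating signals from T cells and, like the BAFF receptors, passes them through TRAF adaptors to NF-kappaB. FAS, TNFRSF1A, TNFRSF10B and TNFRSF21 carry a death domain in the cell, through which several receptors of this kind can start the caspase cascade, and TNFSF10 (TRAIL) is a ligand that triggers death receptors.

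The main differences were in opposite directions and in 1 ligand and 1 receptor. TNFSF13B was at least 15.3-fold lower in the double knockout, with all 3 of its probe sets bright in wild type and under the signal floor in the knockout. TNFRSF21, also called death receptor DR6, was 3.03-fold higher. The other 5 measured members, namely TACI, CD40, FAS, TNFRSF1A and TRAIL, stood within 1.5-fold of wild type.

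Each value is a MAS5 signal, the arbitrary-unit brightness of 1 probe set on a linear scale. Probes differ in brightness for reasons other than the amount of RNA, so levels are compared between the arrays for 1 probe set and never between genes. The floor was the median of all signals other than controls, 58.3, and a lower signal was set to it. Of the 19 member probe sets, 11 exceeded the floor on both arrays, 5 in wild type only and 3 on neither. The 5 were the 3 probe sets of TNFSF13B and 2 dim ones of TNFSF10. A gene took the values of its brightest probe set and counted as measured if this exceeded the floor in either culture, as was so for 7 members and 9486 genes in all. Of these measured genes, 6 members and 8042 genes in all exceeded the floor on both arrays. A log2 ratio is knockout minus wild type, and "at least" marks a fold that is a bound because 1 of the signals did not reach the floor. The only error that 2 arrays allow is the disagreement between probe sets of a gene. The SD of the log2 ratio of a single probe set, taken over 2240 genes that had exactly 2 probe sets past the floor in both cultures, was 0.42 (0.50 for mean signals up to 250, 0.43 between 250 and 1000 and 0.32 above 1000). It holds no spread between cultures or clones.

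**Figure D1:**
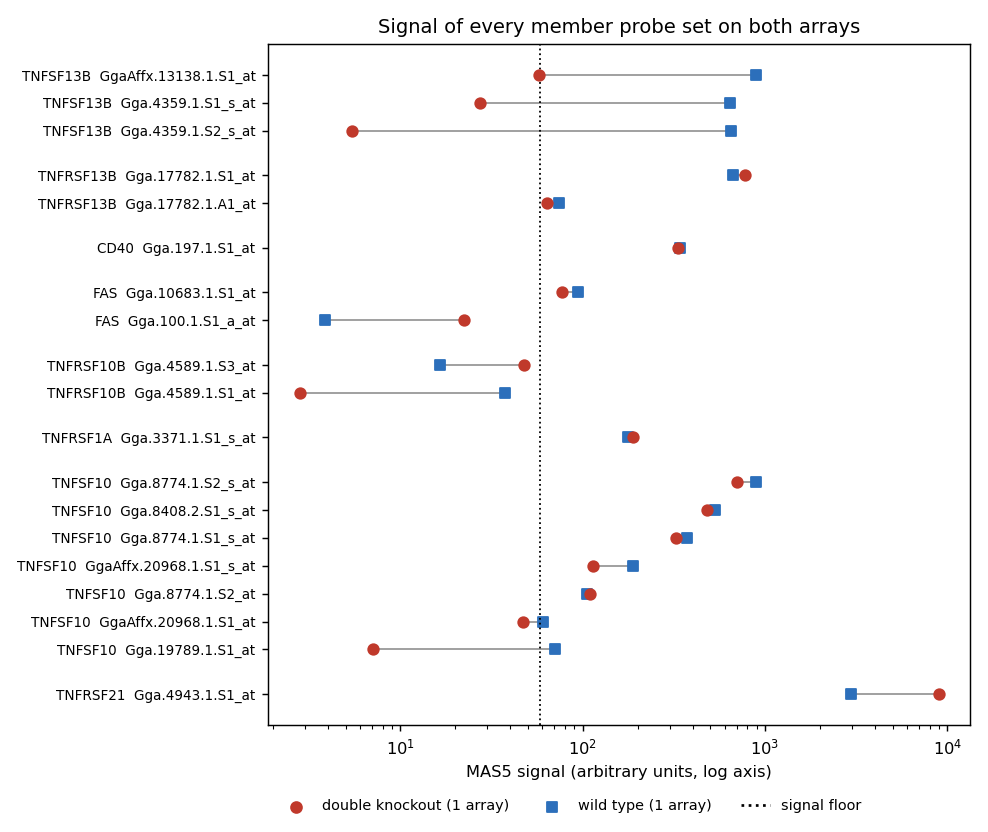
MAS5 signal (log axis, arbitrary units) of each of the 19 member probe sets on the double knockout array (circles) and the wild-type array (squares), with the signal floor of 58.3 as a dotted line. The 3 TNFSF13B probe sets lie far to the right of the floor in wild type and left of it in the knockout, while the single TNFRSF21 probe set is brighter in the knockout.

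Of all measured genes, 6.62% were lower in the knockout by 2-fold or more and 3.87% were higher by as much. At 1.5-fold the shares were 15.9% lower and 12.4% higher. Every count of list genes given below is to be read beside these shares. After median centring the 2-fold calls were 469 lower and 553 higher genes, in place of 628 and 367. These are not balanced calls, because that setting did not centre the ratios of the genes. Under it the typical measured gene stood higher in the knockout, at a median of 0.16 where the deposited values gave 0.02. Among the 7 measured members, 1 was lower and 1 higher by at least 2-fold, and these counts were the same at 1.5-fold. The members had a median log2 ratio of -0.04, beside 0.02 for all measured genes. The members are described by gene below. Both targeted genes had far lower signals in the knockout, with 387 in the knockout and 27331 in wild type for H2A.Z-1 (listed as H2AFZ) and 17.6 in the knockout and 18244 in wild type for H2A.Z-2 (listed as H2AZ2). Whether these probes lie in the removed parts of the genes was not examined here. The ratio of 3′ to 5′ signal of control probe sets was higher in the knockout for actin (1.95 in the knockout, 1.13 in wild type) and elongation factor EF1A (1.46 in the knockout, 1.23 in wild type). It was close for GAPDH (1.07 in the knockout, 1.03 in wild type). Transcripts added to the RNA as labelling controls (dap, lys, phe and thr) had a higher ratio in the knockout in 10 of 12 pairs of probe sets. The largest was 5.91 in the knockout and 2.45 in wild type, for a dap pair. Several pairs read the same transcript, so they are not 12 separate readings. Both exceptions were lys pairs (1.26 and 0.96 in the knockout, 1.46 and 1.23 in wild type). The ratio thus differed for added as well as for cellular RNA. Its part in the results below was not tested.

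**Figure D2:**
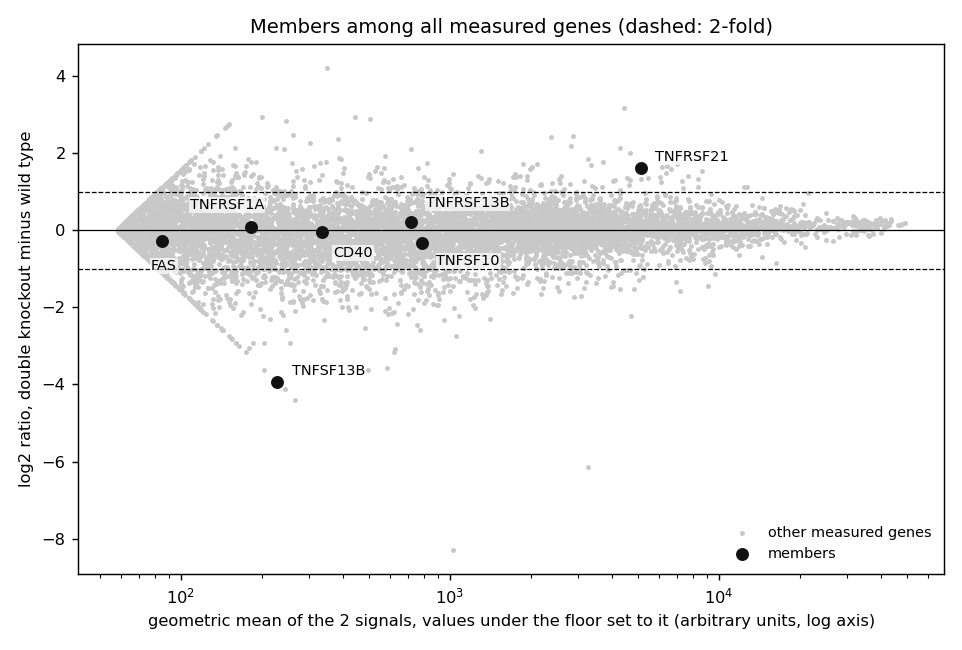
Log2 ratio (double knockout minus wild type) against the geometric mean signal of the 2 arrays for all 9486 measured genes (grey) and the 7 measured members (black), with dashed lines at 2-fold. TNFSF13B at -3.94 and TNFRSF21 at 1.60 lie outside the bulk of genes, and the other 5 members lie within it.

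Among the ligands, TNFSF13B lies on chromosome 1 of the reference assembly GRCg7b, which was used for names and gene order only. Its brightest probe set had a signal of 57.8 in the knockout, just under the floor, and 893 in wild type. The second had 5.45 in the knockout and 648 in wild type. The third had 27.2 in the knockout and 644 in wild type. All 3 probe sets were thus well above the floor in wild type and under it in the knockout. Their bounds were at least 15.3-fold, 11.1-fold and 11.1-fold lower. The brightest has a name ending in _at alone, the type meant for a single transcript, whereas the other 2 end in _s_at, which can be shared between transcripts or genes. The bound of TNFSF13B was the fifth lowest log2 ratio (-3.94) of the 9486 measured genes, a rank that mixes bounds with ratios measured on both arrays. Only the bound is fixed by these data, since a signal under the floor has no order.

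The size of that bound follows from where the floor is set. TNFSF13B had a log2 ratio of -3.95 with the floor at the 25th percentile, where its brightest probe set counted as measured on both arrays. With the floor at the 75th percentile the bound was -1.54, and with a pseudocount equal to the floor the value was -3.04. It was lower by at least 2-fold in each of the 9 settings that gave it a value. It dropped out when genes had to exceed the floor in both cultures.

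The genes with the most similar pair of log2 signals over the 2 arrays were PACSIN3, an endocytic adaptor, at a Euclidean distance of 0.18, MITD1, which acts in cytokinesis, at 0.32, and PINLYP, a relative of phospholipase inhibitors, at 0.45. PACSIN3 had a signal of 52.0 in the knockout and 1013 in wild type. MITD1 had 53.2 in the knockout and 714 in wild type. PINLYP had 50.7 in the knockout and 1221 in wild type. Each had 1 measured probe set. The knockout signals of these genes and of TNFSF13B were all set to the floor, so the distance holds only the difference in wild type. A likeness over 2 arrays says only that the gene was bright in wild type and under the floor in the knockout.

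TNFSF10, the gene for TRAIL on chromosome 9, had 7 probe sets, the most of any member. The brightest had a signal of 700 in the knockout and 887 in wild type, 1.27-fold lower. The next 2 had 479 and 325 in the knockout and 530 and 374 in wild type. These 3 bright probe sets were all slightly lower in the knockout, by less than the probe set SD of 0.43 for such signals, with log2 ratios of -0.34, -0.15 and -0.21. The fourth gave the lowest ratio, with 114 in the knockout and 189 in wild type (log2 ratio -0.73), and the fifth the highest, with 110 in the knockout and 106 in wild type (0.06). The last 2 probe sets were above the floor in wild type only and near it, at 47.2 in the knockout and 60.6 in wild type for one and 7.11 in the knockout and 70.3 in wild type for the other. Without the shared type of probe set the gene's log2 ratio was 0.06 in place of -0.34, so its sign is not settled, and it lay within 1.5-fold under every setting tried.

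Among the receptors of B cell survival and activation, TNFRSF13B (TACI, chromosome 14) had a signal of 776 in the knockout and 666 in wild type on its brighter probe set, 1.16-fold higher. Its dimmer probe set, close to the floor, had 63.3 in the knockout and 73.7 in wild type, 1.16-fold lower. The 2 probe sets thus went opposite ways by less than the probe set SD. CD40 (chromosome 20) had a single probe set with 332 in the knockout and 340 in wild type, a log2 ratio of -0.04 that ran from -0.04 to 0.13 over the settings. The main receptor of BAFF, TNFRSF13C, has no annotated probe set, and neither has TNFRSF17 (BCMA), the further receptor of the BAFF system. TACI is therefore the only BAFF receptor with a value here, and its signals on the 2 arrays lay close together where those of its ligand lay far apart.

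Among the death receptors, TNFRSF21 (DR6, chromosome 3) had the largest difference. Its single probe set had a signal of 8940 in the knockout and 2953 in wild type, bright on both arrays. The log2 ratio of 1.60 compares with a probe set SD of 0.32 at such signals. It was the 76th highest of the 9486 measured genes and lay between 1.55 and 1.75 over all 10 settings. A single probe set gives no second reading of this gene.

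FAS (chromosome 6) had a signal of 76.8 in the knockout and 94.1 in wild type on its brighter probe set, 1.22-fold lower. Its other probe set was under the floor on both arrays, with 22.4 in the knockout and 3.88 in wild type. TNFRSF1A (chromosome 1), the first receptor of TNF, had 188 in the knockout and 177 in wild type, 1.06-fold higher. Its only probe set is of the type that can be shared between transcripts or genes, so TNFRSF1A had no value without that type. These receptors stood nearly level on the 2 arrays, FAS only a little above the floor.

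TNFRSF10B (chromosome 22) was not measured. In chickens this gene is also known as TVB, the receptor that subgroups of avian leukosis virus use to enter the cell. One probe set had 2.82 in the knockout and 37.6 in wild type, and the other had 47.4 in the knockout and 16.5 in wild type. The 2 probe sets went opposite ways and all 4 signals were under the floor, so no fold is given.

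**Figure D3:**
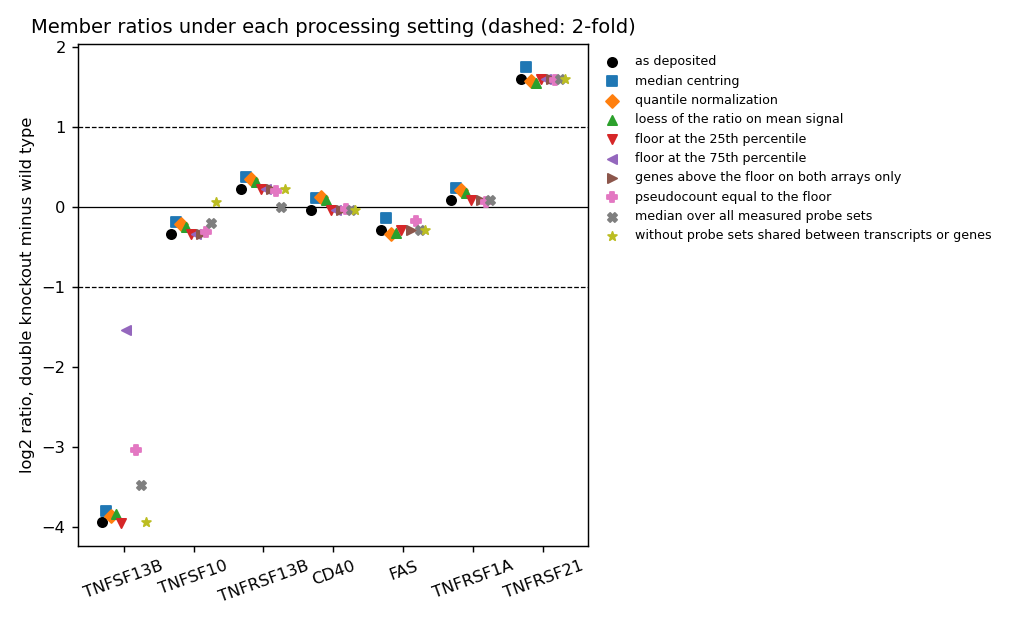
Log2 ratio (double knockout minus wild type) of each of the 7 measured members under the values as deposited and the 9 alternative settings, with dashed lines at 2-fold. TNFSF13B stayed below -1 and TNFRSF21 above 1 wherever they had a value, and the other 5 members stayed between the lines.

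In the rest of the superfamily, few genes were measured, and many had no annotated probe set. Of all 13051 annotated genes on the array, 9486 were measured. Of 16 other ligands, 6 were on the array and 1 was measured. This was CD40LG, the ligand of CD40, which was near the floor with 63.5 in the knockout and 26.3 in wild type. Of 20 other receptors, 14 were on the array and 7 were measured, of which 4 were higher by at least 1.5-fold, 1 of them by 2-fold, and none had a ratio or bound of 1.5-fold lower, with a median log2 ratio of 0.71. TNFRSF8 (CD30), an activation marker of lymphocytes, had a signal of 193 in the knockout and 71.4 in wild type, 2.70-fold higher. TNFRSF1B, the other receptor of TNF, had 581 in the knockout and 319 in wild type, 1.82-fold higher, but the lowest of its 3 probe sets had a log2 ratio of 0.06. RELT had 113 in the knockout and 55.9 in wild type, at least 1.94-fold higher, and NGFR, the low-affinity neurotrophin receptor, had 99.6 in the knockout and 61.0 in wild type, 1.63-fold higher. Most of these signals were dim, and the median was 0.23 without the shared type of probe set. TNFRSF9 and TNFRSF18 were 1.41-fold and 1.43-fold lower, with another probe set of TNFRSF9 at a log2 ratio of -0.81 and one of TNFRSF18 at 0.09. TNFRSF6B was under the floor in the knockout and at least 1.18-fold lower.

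**Figure D4:**
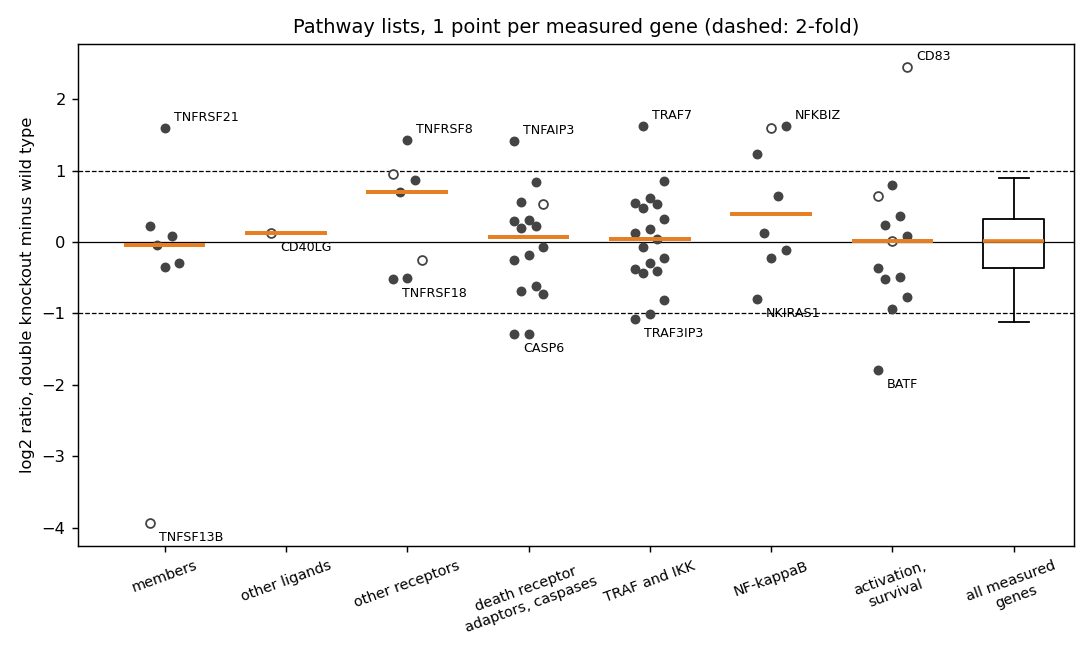
Log2 ratio (double knockout minus wild type) of each measured gene in the members and 6 pathway lists (filled points exceed the floor on both arrays, open points on 1), with the list median as an orange line. The box gives all measured genes, from the 25th to the 75th percentile with the median, and whiskers from the 5th to the 95th; the NF-kappaB and other receptor medians, 0.39 and 0.71, are the highest, and the members' median is close to 0.

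Downstream of the death receptors, the list of adaptors, caspases and their brakes had 16 measured genes, of which 2 were at least 2-fold lower and 1 at least 2-fold higher. At 1.5-fold, 5 were lower and 2 higher, and the median log2 ratio was 0.07. The genes lower by at least 1.5-fold were the executioner caspase CASP6 (813 in the knockout, 1984 in wild type), the death domain adaptor CRADD (122 in the knockout, 296 in wild type), the kinase RIPK1 (466 in the knockout, 774 in wild type), the adaptor FADD (99.9 in the knockout, 161 in wild type) and the initiator caspase CASP8 (546 in the knockout, 835 in wild type). RIPK1, FADD and CASP8 act directly below death receptors, and their log2 ratios were -0.73, -0.69 and -0.61. The probe set SD was 0.43 at the signals of RIPK1 and CASP8 and 0.50 at those of FADD. RIPK3 in the same list had -0.18, with another probe set at -0.60, and TRADD and CASP10 were under the floor on both arrays. FADD had 3 measured probe sets that went both ways, up to 0.70. The genes higher by at least 1.5-fold were TNFAIP3, which restrains NF-kappaB (199 in the knockout, 74.5 in wild type, 2.67-fold), and the death effector domain protein DEDD (5769 in the knockout, 3213 in wild type). CFLAR, which blocks CASP8, had a log2 ratio of -0.25.

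Among TRAF adaptors and IKK kinases, 19 genes were measured, with 2 at least 2-fold lower, 1 at least 2-fold higher and a median of 0.05. At 1.5-fold, 3 were lower and 3 higher. TRAF7, a ubiquitin ligase of the TRAF family, had a signal of 10807 in the knockout and 3501 in wild type, 3.09-fold higher. The 2 that were lower by at least 2-fold are named for binding TRAF3. TRAF3IP3 had 2208 in the knockout and 4648 in wild type, and TRAF3IP1, which is also a subunit of intraflagellar transport, had 387 in the knockout and 779 in wild type. TRAF3 itself, which holds back the non-canonical pathway that BAFF uses, had 184 in the knockout and 101 in wild type, 1.82-fold higher, with 3 probe sets between 0.25 and 1.11 on the log2 scale. MAP3K14 (NIK), the kinase of that pathway, had 747 in the knockout and 486 in wild type, 1.54-fold higher. TAB1, the third gene lower by at least 1.5-fold, had 597 in the knockout and 1053 in wild type, 1.76-fold lower. The kinases CHUK and IKBKB, which NIK and other signals act on, had log2 ratios of 0.19 and 0.05.

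Of the NF-kappaB subunits and inhibitors, 8 were measured, of which 4 were higher by at least 1.5-fold, 3 of them by 2-fold, and 1 was lower by at least 1.5-fold. NFKB2, the subunit processed after BAFF or CD40 signals, had a signal of 176 in the knockout and 44.3 in wild type, at least 3.02-fold higher. NFKBIZ and the inhibitor NFKBIA had 708 and 2124 in the knockout and 230 and 901 in wild type, and NFKBIE was 1.57-fold higher. NKIRAS1, which binds inhibitors of NF-kappaB, was 1.73-fold lower. NFKB1 and REL had log2 ratios of -0.11 and 0.13, with another probe set of REL at 0.73, and RELA was under the floor. The list's median log2 ratio was 0.39, between 0.40 and 0.54 under the 3 other scalings, and 0.01 at the lowest over all settings. The 0.54 came with median centring, where the median of all measured genes was 0.16, in place of 0.02 as deposited. With only genes above the floor in both cultures, the list's median was 0.13.

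In the list of B cell activation and survival genes, which lie downstream of BAFF and CD40 in mammals, 13 were measured, of which 3 were higher and 3 lower by at least 1.5-fold (1 each at 2-fold), with a median of 0.02. The activation marker CD83 had a signal of 320 in the knockout and 31.0 in wild type, at least 5.49-fold higher, and the costimulatory ligand CD86 had 123 in the knockout and 70.5 in wild type, 1.74-fold higher. The transcription factor BATF had 75.2 in the knockout and 260 in wild type, 3.46-fold lower. The survival gene BCL2 had 446 in the knockout and 853 in wild type, 1.91-fold lower, and its 3 probe sets lay between -0.94 and -0.35 on the log2 scale. BCL2L1 (BCL-XL) and MCL1, the related survival genes, had log2 ratios of -0.49 and -0.52. The 3 probe sets of BCL2L1 ran from -0.49 to -0.06 and the 4 of MCL1 from -1.66 to 0.11. PIM3 was at least 1.57-fold higher (91.3 in the knockout, 52.9 in wild type). SLAMF1 was 1.70-fold lower (172 in the knockout, 292 in wild type). CCND2, MYC, IRF4 and CCL4 lay within 1.5-fold, at 0.36, 0.23, 0.09 and -0.36, and IL10 was near the floor.

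The labelled cell type was checked against markers. Of 14 B cell markers, 11 were on the array and 10 were measured, all of them on both arrays. Their summed signal was 29828 in the knockout and 41476 in wild type. That sum follows the brightest probe sets, among them POU2AF1 (6225 in the knockout, 9903 in wild type) and CD72 (2814 in the knockout, 6309 in wild type). CD79B, the signalling chain of the B cell receptor, had 7718 in the knockout and 8827 in wild type. Of these 10, 5 were at least 1.5-fold lower and 1 higher, beside 15.9% and 12.4% of all measured genes. The lower ones were IKZF1, CD72, SYK, PAX5 and POU2AF1, with log2 ratios of -1.34, -1.16, -0.82, -0.73 and -0.67. Their other probe sets ran from -1.71 for POU2AF1 to -0.47 for PAX5. The higher one was CR2 at 0.69, with another probe set at -0.67. EBF1, LYN, BTK and CD79B lay within 1.5-fold, at 0.47, 0.44, -0.37 and -0.19, with another probe set of EBF1 at -0.33. Several B cell genes were thus lower beside TNFSF13B, and their part in its difference was not tested. Of 12 T cell markers 5 were measured, of which 2, CD3D and CD3E, were at least 1.5-fold lower and none was as much higher. Their summed signal over all 5 was 4446 in the knockout and 12729 in wild type. Most of that sum was CD3D (4162 in the knockout, 12407 in wild type). CD3E, CD5 and ZAP70 were above the floor in wild type only, with bounds of at least 1.55-fold, 1.34-fold and 1.02-fold lower. CD8A had 109 in the knockout and 94.4 in wild type, and CD4 and LCK were among the 5 under the floor on both arrays. The myeloid and dendritic list, cells that make BAFF in mammals, had 2 of 12 markers measured, with a summed signal of 175 in the knockout and 130 in wild type. These were CSF1R (106 in the knockout, 65.7 in wild type, 1.62-fold higher) and MARCO (68.7 in the knockout, 64.3 in wild type), and 6 others on the array, LYZ and CSF3R among them, were under the floor on both arrays. Markers of erythroid cells and thrombocytes (3 of 12 measured, each above the floor in the knockout only) summed to 285 in the knockout and, with all 3 at the floor, 175 in wild type. HBAD had 132 in the knockout and 35.3 in wild type, at least 2.26-fold higher. TAL1 had 94.5 in the knockout and 32.7 in wild type, at least 1.62-fold higher, and HBA1 was near the floor. Markers of fibroblasts and stroma (7 of 12) summed to 1070 in the knockout and 852 in wild type. These 7 went both ways, 4 higher and 3 lower, from FN1 at 2.55-fold higher to COL1A1 at least 2.11-fold lower. In these sums a signal under the floor counts as the floor, and their part in the results was not tested.

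The genes next to the members were also read, since neighbours share a chromosome region. For each measured member, the 2 nearest measured genes on either side in the order of GRCg7b were taken, 28 genes in all. Of these, 2 were at least 2-fold lower and 2 at least 2-fold higher, beside 6.62% and 3.87% of all measured genes. Their median log2 ratio was 0.05, beside 0.02 for all measured genes. Around TNFSF13B, ABHD13 had 1655 in the knockout and 2913 in wild type, and the DNA ligase gene LIG4 had 200.3 in the knockout and 348 in wild type, log2 ratios of -0.82 and -0.80. On the other side ANKRD10 and ING1 had -0.51 and 0.02. None of these 4 came near the bound of TNFSF13B. The neighbours of TNFRSF21 ran from -0.40 for CD2AP to 0.47 for OPN5, most of them near the floor. Larger differences stood beside members that hardly differed: NCEH1, before TNFSF10, had 290 in the knockout and 1284 in wild type, 4.43-fold lower, and LIPA, after FAS, had 337 in the knockout and 94.3 in wild type, 3.58-fold higher.

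**Figure D5:**
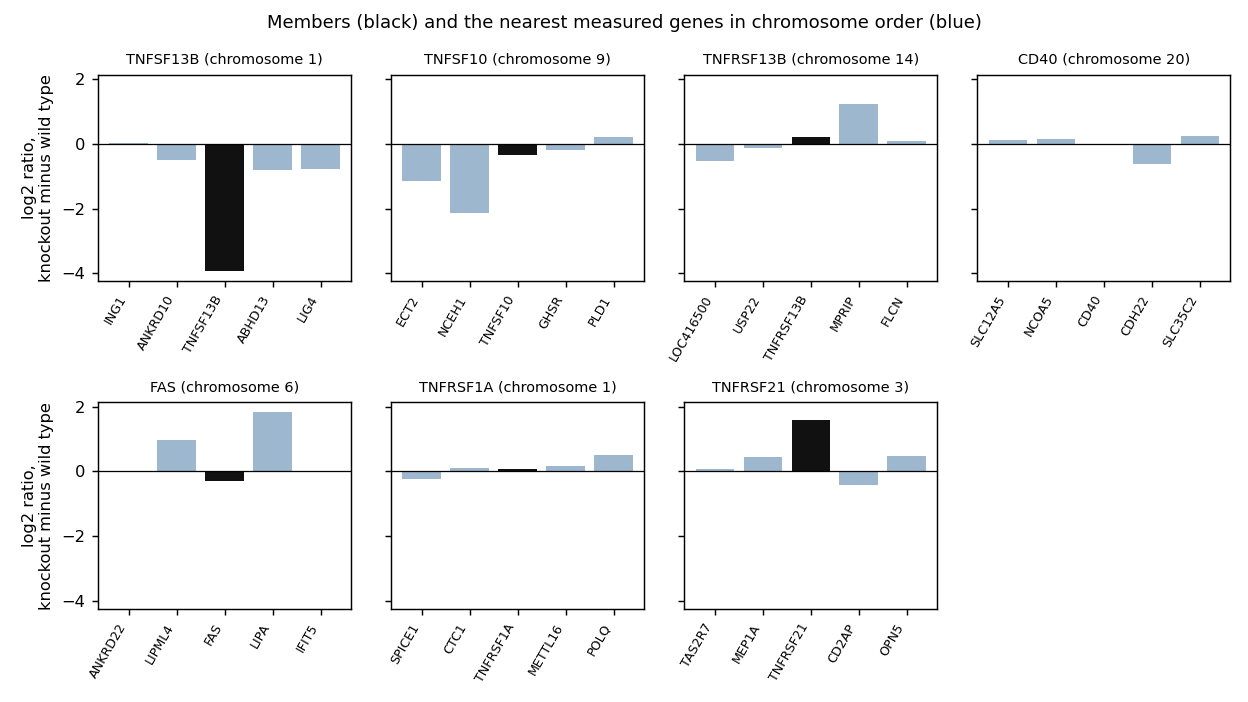
Log2 ratio (double knockout minus wild type) of each measured member (black) and the 2 nearest measured genes on either side (blue), in chromosome order with no scale of distance. The bars of TNFSF13B (-3.94) and TNFRSF21 (1.60) exceed those of their own neighbours, and NCEH1 (-2.15) and LIPA (1.84) exceed the members beside them.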

How the data were processed

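Affymetrix chicken arrays of 1 colour measured biotin-labelled RNA of 2 DT40 cultures, 1 per group. Per the submitters' processing notes, MAS5 gave the deposited intensity values, 1 per probe set. The version, the scaling target and the detection calls were not used here. Signals ran from 0.073 to 53801, with a mean of 500.2 on either array after trimming 2% at both ends. MAS5 scales an array by a single factor, which leaves trends with brightness in place.

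Genes were named from the platform's annotation (27178 probe sets with 1 gene, 177 with several, which named none here, 11180 without). Of 184 entries in 12 lists, 135 matched by symbol and 49 had no match by symbol or gene ID. Signals under the floor (50th percentile of 38439 signals per array other than controls) were set to it and log2 taken. No test was made. The members and gene lists were chosen with earlier results of these data known. Named were all members, the 4 largest ratios of each pathway list, the 3 genes nearest to TNFSF13B and both targeted genes. Markers, neighbours and other list genes were chosen after their values were seen. The alternatives were 9: median centring, quantile normalization, loess (span 0.3), a floor at the 25th or 75th percentile, only genes past the floor in both cultures, the floor as a pseudocount, the median of all measured probe sets, and no shared probe sets (names ending in _s_at, _x_at or _a_at). The computation was tested on simulated data. Python 3.11.15, pandas 2.3.3 and statsmodels 0.14.6 were used.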

Additional observations from a re-analysis of the deposited data

How the results depend on the processing

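Of 45 values of the 4 member counts and the members' median over 9 alternatives, 40 stayed close to the value as deposited (counts within 1.5 times, the median within the probe set SD over the square root of 7). These are not 45 separate checks. The counts at 2-fold and 1.5-fold were equal in every setting and mostly repeat whether TNFSF13B and TNFRSF21 stayed past the line. The count of members higher by 2-fold was 2, as was that at 1.5-fold, with the floor at the 25th percentile, where TNFRSF10B entered with a log2 ratio of 1.52 on 1 of its 2 dim probe sets. The count of lower members was 0 at either fold when genes had to exceed the floor in both cultures, since that setting leaves TNFSF13B out. The median of the members was 0.13 after quantile normalization, where it was -0.04 as deposited, and it was above 0 under median centring (0.12) and loess (0.08) too. The median of all measured genes was 0.16 after median centring and 0.02 as deposited. The 2-fold calls over all genes, 628 lower and 367 higher as deposited, numbered 469 lower and 553 higher after median centring. A floor set at the 25th percentile gave 1222 lower and 1172 higher, and one set at the 75th gave 292 lower and 130 higher. The lowest medians of the TRAF and death receptor adaptor lists over the settings were -0.02 and -0.06. That of the activation and survival list was -0.43, reached when genes had to exceed the floor in both cultures. None of these 3 lists thus has a settled direction. No paired analysis was possible because each group had 1 array and no test was made. Signals near the floor (FAS, CD40LG, TNFRSF10B and the second TACI probe set) limit what these arrays can show, and a difference between clones or cultures cannot be told apart from one between genotypes.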
